A study of Mus musculus with 2 samples.

Results

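The genes described here are those of heme uptake and heme catabolism: the heme transporter Slc48a1, the inducible heme oxygenase Hmox1 and the biliverdin reductases Blvra and Blvrb. They were chosen by symbol, and all 4 were found among the 26124 genes of the count matrices. The data are single-cell RNA sequencing (scRNA-seq) counts of unique molecular identifiers (UMIs) from spleen cell suspensions of 1 wild-type and 1 sickle cell disease (SCD) mouse, taken to see how splenic DCs and other myeloid cells differ under chronic hemolysis. The SCD mouse (Berkeley model) was homozygous for Hbatm1Paz, for Hbbtm1Tow and for the human globin transgene Tg(HBA-HBBs)41Paz. The mouse called wild-type was no unmodified animal but a control from the same colony that does not sickle, with Hbatm1Paz homozygous, Hbbtm1Tow heterozygous and Tg(HBA-HBBs)41Paz hemizygous. By their labels both mice thus shared the targeted mouse alpha globin alleles and the human transgene. Both were untreated and 12 to 16 weeks old. Erythrocytes were lysed and other cells were removed with magnetic beads to enrich DCs, so class sizes are those of the enriched suspension.

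Heme from aged or damaged erythrocytes is recovered mainly by red pulp macrophages of the spleen, which engulf the cells and degrade their hemoglobin. SLC48A1 (HRG1) carries heme out of the phagolysosome, and HMOX1 opens the heme ring to give biliverdin, carbon monoxide and iron. BLVRA reduces this biliverdin to bilirubin, whereas BLVRB reduces other isomers of biliverdin as well as flavins and is abundant in erythroid cells. Transcription of Hmox1 is held back by BACH1, which heme inactivates, and is driven by NRF2, encoded by Nfe2l2.

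On GRCm38 (GENCODE), Hmox1 lies at chr8:75093621-75100589, Blvra at chr2:127070665-127097084, Blvrb at chr7:27447978-27466144 and Slc48a1 at chr15:97778520-97792692, all on the plus strand. Slc48a1 shares its last 29 bases with Hdac7 on the minus strand, and the other members overlap no annotated gene. The RefSeq promoter table (GRCm38.p6) held starts for 2 of the 4 members, Blvra and Blvrb. Their upstream sequences are shown because the transcripts of the 2 biliverdin reductases were spread differently over the cell classes. Capitals mark matches to the motifs searched on both strands: the core of the antioxidant response element (TGACNNNGC), the GATA motifs AGATAA and TGATAA, the CACCC box (CCACCC) and the GC box (GGGCGG). The windows are chr2:127070407-127070628 for Blvra and chr7:27447728-27447977 for Blvrb, each ending at the base before the RefSeq start on the plus strand.
Blvra: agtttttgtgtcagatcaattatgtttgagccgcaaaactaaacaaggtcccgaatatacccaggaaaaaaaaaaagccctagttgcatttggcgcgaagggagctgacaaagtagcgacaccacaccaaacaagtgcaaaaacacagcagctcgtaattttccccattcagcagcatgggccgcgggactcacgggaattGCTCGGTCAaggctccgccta
Blvrb: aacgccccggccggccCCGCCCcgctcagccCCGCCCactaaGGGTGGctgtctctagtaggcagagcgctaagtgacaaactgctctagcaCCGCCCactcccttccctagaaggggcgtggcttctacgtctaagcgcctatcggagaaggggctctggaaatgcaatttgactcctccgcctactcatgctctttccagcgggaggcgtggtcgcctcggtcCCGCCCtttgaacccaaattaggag
The Blvra window of 222 bases held 1 match to TGACNNNGC on the minus strand, a motif found in 8.79% of 32851 promoter windows of that length. The Blvrb window of 250 bases held no TGACNNNGC but 4 GC boxes on the minus strand, and 4 or more of these were found in 4.09% of promoters. It also held 1 CCACCC match, as did 28.1% of promoters, and neither window held AGATAA or TGATAA. These matches describe the letters of the windows and do not show that a factor binds there.

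The wild-type library held 10845 cells with a median of 4991 UMIs, and the SCD library 13447 cells with a median of 8596. Cells with 500 to 5000 genes, under 15% mitochondrial and under 30% ribosomal UMIs were kept, which left 9423 wild-type and 10635 SCD cells. Kept cells were placed in classes by their marker genes, none of which was a heme or iron gene of the lists used here. The classes held 280 wild-type and 154 SCD red pulp macrophages, 1080 and 1387 monocytes, 4005 and 7104 neutrophils, 2370 and 561 conventional DCs, 760 and 572 plasmacytoid DCs (pDCs), and 70 and 103 erythroid cells. The median red pulp macrophage had UMIs of 9 of its 10 markers in both libraries, and their transcription factor Spic, which was not used to place them, was at 830 and 741 counts per 1000000 UMIs of the class (CPM). The median erythroid cell had UMIs of 6 markers of 12 in the wild-type and 7 in the SCD library. Against the labelled alpha globin genotype, mouse alpha globin genes took 8.26% of the UMIs of wild-type and 8.49% of those of SCD erythroid cells, while mouse beta globin genes took 27.6% and 0.260%, the direction of the labels. Between the libraries, 88 cell barcodes were shared, 22 of them in kept cells of both. With 1 mouse per group there was no replicate and no test. Intervals in brackets are exact 95% intervals that cover counting error only, and all differences compare these libraries. A difference of genotype and a difference between 2 animals or preparations cannot be told apart.

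To locate each step of the pathway, the members were compared across classes. Levels are compared within a gene and not between genes, since the assay counts transcript ends. Slc48a1 was highest in red pulp macrophages, at 491 CPM in the wild-type (436 to 552) and 593 in the SCD library (522 to 671). Kept erythroid cells followed with 135 and 130 CPM, while those over the limit of 5000 genes were at 53.4 and 59.1, and monocytes (40.3 and 36.2), pDCs (36.0 and 37.6), conventional DCs (25.3 and 26.6) and neutrophils (19.6 and 19.7) came below. Monocytes and pDCs had overlapping intervals in both libraries, and the span from neutrophils to red pulp macrophages was 25.1-fold in the wild-type and 30.1-fold in the SCD library.

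Hmox1 was also highest in red pulp macrophages. In the wild-type library it stood at 5090 CPM in red pulp macrophages, 294 in monocytes, 56.4 in erythroid cells, 53.0 in neutrophils, 20.2 in conventional DCs and 7.48 in pDCs. In the SCD library the values were 9160, 115, 143, 23.5, 21.9 and 5.50 in the same order of classes. Erythroid cells and neutrophils overlapped in the wild-type library, and the pairs of erythroid cells with monocytes and of neutrophils with conventional DCs overlapped in the SCD library. The place of the erythroid cells rests on the 70 and 103 kept cells. The 159 and 554 erythroid cells over the limit of 5000 genes were at 7.54 and 2.47 CPM, near or under pDCs, and in kept wild-type erythroid cells Hmox1 was not above what macrophage transcripts found there would give (106% at the macrophage ratio). Early B cells, which were taken as a class not known for Hmox1, had 2 UMIs in the wild-type library and 16 in the SCD library (8.09 CPM), and the level in pDCs was not above theirs.

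Blvra, like Slc48a1 and Hmox1, was highest in red pulp macrophages (139 CPM in wild-type, 213 in SCD), followed by monocytes (58.3 and 62.3). Erythroid cells were at 15 CPM in the wild-type and 52.2 in the SCD library, where they overlapped monocytes, and those over the limit of 5000 genes were at 43.1 and 46.4. Conventional DCs (28.0 and 27.4) and pDCs (24.6 and 23.1) overlapped in both libraries, and neutrophils were lowest (4.37 and 7.16). Among kept cells Blvrb was the member whose highest class was not the macrophage. It stood at 1136 CPM (1047 to 1230) in wild-type and 1915 (1817 to 2017) in SCD erythroid cells, against 622 and 682 in red pulp macrophages. The more numerous erythroid cells over the limit of 5000 genes were at 699 and 652 CPM, which in the SCD library is not above the macrophages. Blvrb was also well above the lowest classes in pDCs (88.3 and 108) and monocytes (82.7 and 66.5), while neutrophils (24.3 and 21.7) and conventional DCs (17.3 and 18.3) were lowest. At the ratio of Blvrb to erythroid marker genes seen in erythroid cells, the erythroid transcripts found in SCD neutrophils and conventional DCs would alone give 102% and 118% of the Blvrb there, so it was not above that level in the SCD library. In the wild-type library the values were 46.2% and 50.2%.

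**Figure D1:**
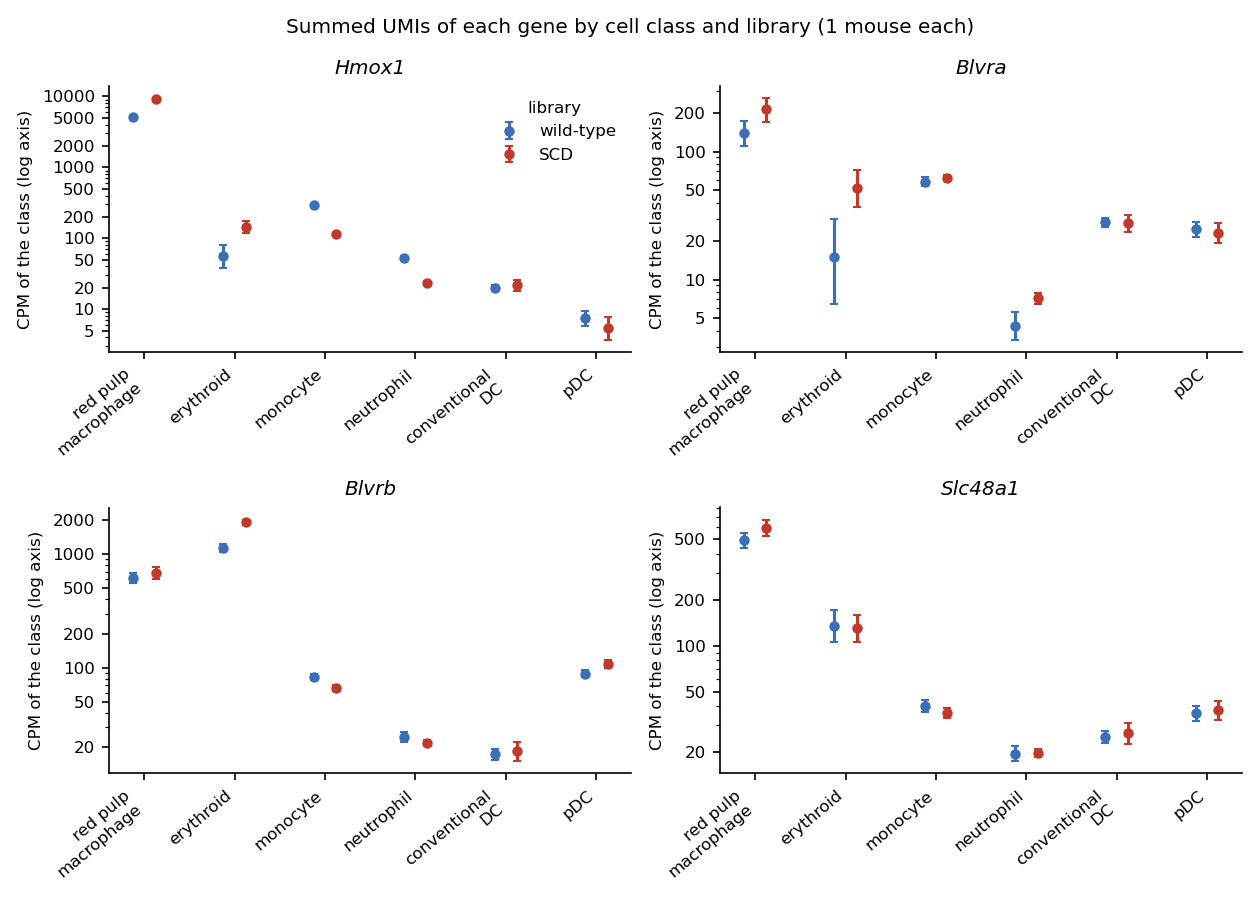
Level of each gene (CPM of the class, log axis, its own scale in each panel) in 6 cell classes of the wild-type (blue) and SCD (red) library, with exact 95% Poisson bars that cover counting error only. Red pulp macrophages lead for Hmox1 (5090 and 9160), Blvra (139 and 213) and Slc48a1 (491 and 593), and among these cells, which have at most 5000 genes, erythroid cells for Blvrb (1136 and 1915).

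To see whether the macrophages that handle heme carried more of this machinery in the SCD mouse, the members were compared within red pulp macrophages. All 4 were expressed there (at least 20 UMIs and 50 CPM in a library), and 2 of the 4, Hmox1 and Blvra, were at least 1.5-fold higher in the SCD library, against 11.2% of the 3768 genes expressed in these cells. Both calls end when the class is taken from a cluster (1.30 and 1.17), and that of Blvra also with called doublets removed (1.47). None was at least 1.5-fold lower, against 18.4% of these genes. Hmox1 had 2963 UMIs in wild-type and 3908 in SCD cells, which gave 5090 CPM (4909 to 5277) and 9160 CPM (8875 to 9452), a ratio of 1.80 (1.72 to 1.89). Blvra had 81 and 91 UMIs, or 139 (111 to 173) and 213 CPM (172 to 262), and a ratio of 1.53 (1.12 to 2.09) whose interval spans the 1.5-fold limit. Slc48a1 (286 and 253 UMIs) was 1.21-fold higher (1.02 to 1.43) and Blvrb (362 and 291 UMIs) had a ratio of 1.10 (0.937 to 1.28), so that the transporter and the second reductase stayed within 1.5-fold. The median ratio over all expressed genes of these cells was 0.947.

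**Figure D2:**
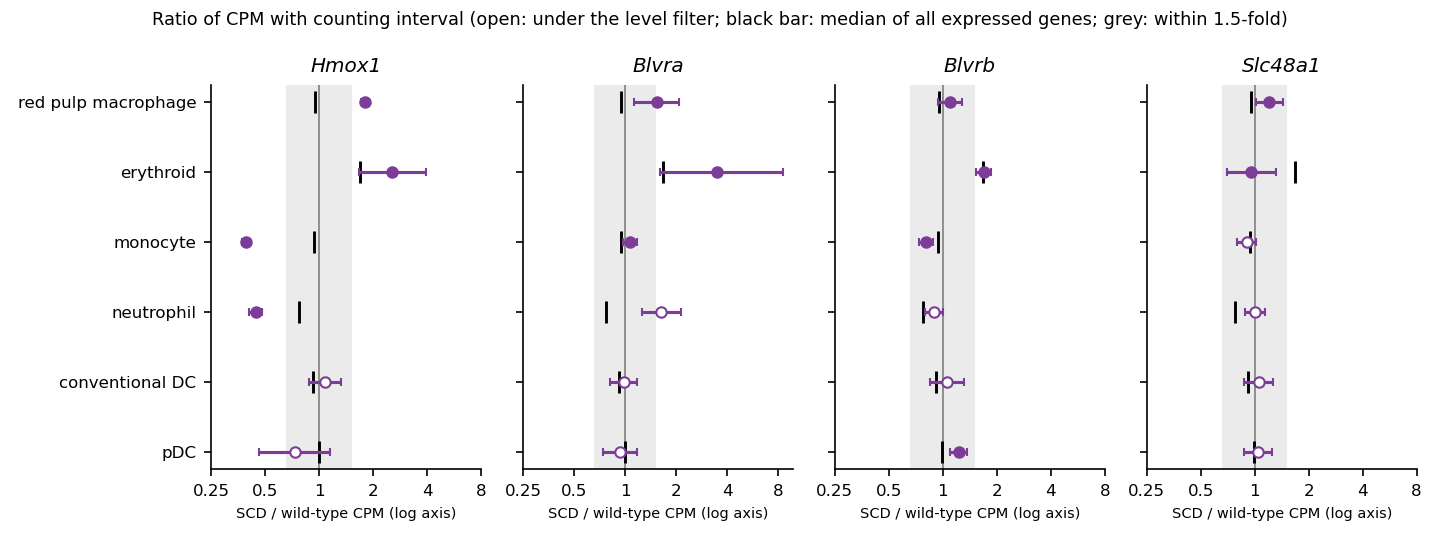
Ratio of SCD to wild-type CPM (log axis) for each gene and cell class, with exact 95% counting intervals. The grey band marks changes of less than 1.5-fold, the black bars the median of all expressed genes, and open points genes under the level filter; Hmox1 lies at 1.80 in red pulp macrophages but at 0.392 in monocytes and 0.443 in neutrophils.

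The number of Hmox1 UMIs per macrophage was also compared between the libraries. Cells were thinned to 1000 UMIs each, which left out 80 wild-type and 20 SCD cells with fewer. Of the remaining 200 wild-type and 134 SCD cells, 96.0% and 97.0% held a Hmox1 UMI (96.1% and 98.7% unthinned), while none of 29 wild-type and 279 SCD early B cells did at the same depth. This limits only the share with a UMI at 1000 UMIs per cell (3 cells of the total, or up to 10.3% and 1.08%) and not expression, since unthinned, 6.90% and 4.64% of the early B cells held a Hmox1 UMI. The unthinned medians were 1320.5 and 1518 UMIs in macrophages and 5352 and 4942 in early B cells. The median macrophage held 5 Hmox1 UMIs in the wild-type and 9 in the SCD library, and the 10th and 90th percentiles went from 1 and 11 to 4 and 16. Among cells at or under the median depth of the class the ratio was 1.77, and above it 1.82. Cells with 10 or more Hmox1 UMIs were 38.2% of wild-type and 76.6% of SCD macrophages, and without them, a choice that uses the Hmox1 count itself, the ratio was 1.29 (1.10 to 1.51) and no longer 1.5-fold.

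**Figure D3:**
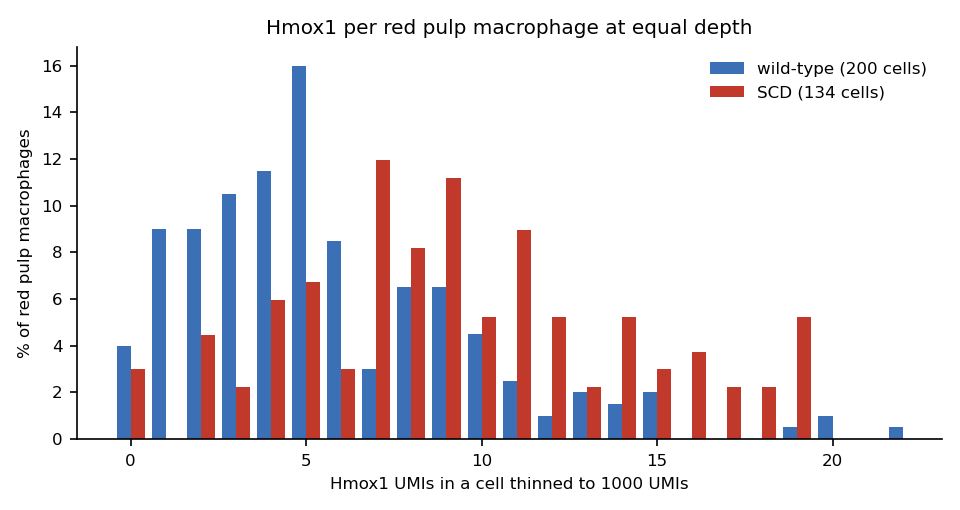
Share of red pulp macrophages (%) by their number of Hmox1 UMIs after each cell was thinned to 1000 UMIs, for 200 wild-type (blue) and 134 SCD (red) cells. The wild-type cells centre on a median of 5 and the SCD cells on a median of 9, and the ranges overlap.

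The other members were seen in fewer macrophages. After thinning, Blvra was detected in 10% (6.22 to 15) of wild-type and 26.1% (18.9 to 34.4) of SCD macrophages (21.1% and 40.9% unthinned), against 0.377% and 0.409% of neutrophils. Slc48a1 was detected in 34.0% (27.5 to 41.0) and 46.3% (37.6 to 55.1), and Blvrb in 45% (38.0 to 52.2) and 53.7% (44.9 to 62.4). The intervals of the libraries overlap for Slc48a1 and Blvrb and not for Blvra. UMIs of 3 or more members were found in 20.5% of wild-type and 38.8% of SCD macrophages. Red pulp macrophages were 2.97% of kept wild-type and 1.45% of kept SCD cells. Over all kept cells Hmox1 was at 128 CPM in wild-type and 84.8 in SCD, a sum in which fewer cells of a type and less RNA per cell cannot be told apart.

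The macrophages also carried RNA of other classes, and unequally. The 15 conventional DC markers summed to 6741 CPM in wild-type and 1275 in SCD macrophages, with 2 and 5 of them at 0, the 11 monocyte markers to 3319 and 2046, the 14 neutrophil markers to 8643 and 13062 and the 12 erythroid markers to 94.5 and 204, with 3 and 1 of them at 0. At the erythroid ratio, erythroid transcripts would account for 2.86% of the Blvrb of wild-type and 10.3% of that of SCD macrophages. A stress list (12 genes of the immediate early and heat shock responses, which tissue dissociation can induce) summed to 794 and 572 CPM, with 0 and 2 of the genes at 0. Without Hsp90aa1, which was at 251 and 410 CPM, it summed to 543 and 162. Among thinned macrophages without stress gene UMIs, Hmox1 and Blvra stayed at least 1.5-fold higher (values given with the other settings below). The part of these lists in the ratios was not otherwise tested. The macrophages' own 10 markers differed little, at 23537 and 27015 CPM. When the class was taken from a cluster rather than from the marker gate, the ratios of Blvrb and Slc48a1 were 0.902 and 0.935, beside the values of Hmox1 and Blvra given above. That cluster held 20 SCD cells outside the gate with 39.1% of its UMIs and Hmox1 at 988 CPM, and 30 such wild-type cells with 15.7% of its UMIs and Hmox1 at 1473 CPM.

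In monocytes the direction of Hmox1 was the opposite. It had 3064 UMIs in the wild-type and 2246 in the SCD library, or 294 (283 to 304) and 115 CPM (110 to 120), a ratio of 0.392 (0.371 to 0.414). The ratio was 0.613 at or under and 0.398 above the median depth of the class, 0.531 after thinning and 0.295 with no upper limit on genes. Of the 3 members expressed in monocytes, 1 was at least 1.5-fold lower, against 16.6% of 3446 genes, and none was higher, against 7.52% (13.3% lower and 10.2% higher with median-of-ratios scaling, which centres the genes). Blvra (608 and 1215 UMIs) had a ratio of 1.07 (0.968 to 1.18) and Blvrb 0.803 (0.737 to 0.877), while Slc48a1 was under the level filter.

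The Hmox1 of monocytes was concentrated in few cells and differed between subsets. In the wild-type library, 50 of 1080 monocytes with 10 or more Hmox1 UMIs held 70.8% of the class's Hmox1 UMIs, and in the SCD library 29 of 1387 held 42.1% (this limit was chosen after the values were seen). Without those cells the levels were 90.2 and 67.7 CPM, a ratio of 0.751 (0.689 to 0.818). Classical monocytes, which carry Ly6c2 and Ccr2, were at 181 CPM in wild-type and 88.9 in SCD, a ratio of 0.492 (0.457 to 0.531). Non-classical monocytes, marked by Ace, Cd300e and Treml4, went the other way, from 485 to 870 CPM, a ratio of 1.79 (1.62 to 1.98). They made up 41.6% of monocytes in the wild-type (449 cells) and 5.70% in the SCD library (79 cells), and held 50% and 23.5% of the class's Hmox1 UMIs. Blvrb was at 113 and 198 CPM in non-classical monocytes (ratio 1.75, 1.41 to 2.16) and at 67.1 and 61.5 in classical monocytes (ratio 0.916, 0.820 to 1.02).

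Transcripts of other classes and of the stress response also differed between the monocytes of the libraries. Conventional DC markers summed to 3401 and 1461 CPM and neutrophil markers to 4516 and 8750. The 10 red pulp macrophage markers summed to 620 CPM in wild-type and 161 in SCD monocytes, with none at 0. At the ratio of Hmox1 to C1qa, C1qb, C1qc, Cd5l and Vcam1 found in macrophages, macrophage transcripts would account for 2.32% of the Hmox1 of wild-type and 2.24% of that of SCD monocytes. With all 10 markers summed these values were 45.7% and 47.3%, and with single markers they ran from 1.86% (Vcam1) to 503% (Hpgd, at 447 CPM in these cells) and from 1.64% (Cd5l) to 906% (Adgre1, at 81.9 CPM), so they depend on the markers taken. The median single marker gave 3.02% and 5.11%. The sets of markers beyond the 5 were taken after the values had been seen. The stress list summed to 1462 and 668 CPM. Among thinned monocytes without a UMI of these genes other than Hsp90aa1, the Hmox1 ratio was 0.448, from 108 and 114 UMIs in 413 and 974 cells. The part of these lists in the difference was not otherwise tested.

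In neutrophils Hmox1 was also lower in the SCD library, but at a low level and among many lower genes. It had 825 and 1416 UMIs, or 53.0 (49.4 to 56.7) and 23.5 CPM (22.2 to 24.7), a ratio of 0.443 (0.406 to 0.483). Hmox1 alone passed the level filter there and was at least 1.5-fold lower, against 37.3% of 2448 genes lower and 7.39% higher. It passed the limit of 50 CPM through the wild-type library only, which favours a call of lower. The median gene had a ratio of 0.774. With median-of-ratios scaling 21% of genes were lower and 19.5% higher, and Hmox1 was at 0.572. Without the 1 wild-type and 9 SCD cells of 10 or more Hmox1 UMIs the ratio was 0.405 (0.370 to 0.442). Blvra had 4.37 and 7.16 CPM, Blvrb 24.3 and 21.7, and Slc48a1 19.6 and 19.7, all under the level filter.

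Maturation differed between the neutrophils of the libraries and moved with Hmox1. Late neutrophils were 85.8% of the class in the wild-type and 34.8% in the SCD library, and immature neutrophils 12.3% and 52.9%. Hmox1 was 77.7 CPM in late wild-type and 53.8 in late SCD neutrophils (ratio 0.693, 0.618 to 0.777), but 17.2 and 15.8 in immature neutrophils (0.917, 0.747 to 1.14). Within cells at or under and above the median depth of the class, the ratio was 0.790 and 0.811. The shallower cells, 3360 wild-type and 2196 SCD, had the higher levels (80.5 and 63.6 CPM, against 22.6 and 18.3 above the median). The share of neutrophils with a Hmox1 UMI was 6.94% and 3.30% after thinning (16.7% and 14.9% unthinned, at median depths of 2509 and 7098.5 UMIs).

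Other values also moved with Hmox1 in neutrophils. Conventional DC markers summed to 847 CPM in wild-type and 320 in SCD cells, and the 10 macrophage markers to 72.1 and 37.7, and their part was not tested. The stress list summed to 2322 CPM in wild-type and 390 in SCD cells. Among thinned neutrophils without a UMI of these genes other than Hsp90aa1, the ratio was 1.0, from 20 and 149 UMIs in 682 and 5056 cells. At the ratio seen in macrophages, macrophage transcripts would account for 13.5% of the Hmox1 of wild-type and 53.0% of that of SCD neutrophils by the 5 markers, and for 29.4% and 54.5% by all 10. Single markers gave 8.68% (Mrc1) to 445% (Adgre1) and 22.8% (Fcna) to 318% (Adgre1), with medians of 11.4% and 27.3%.

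**Figure D4:**
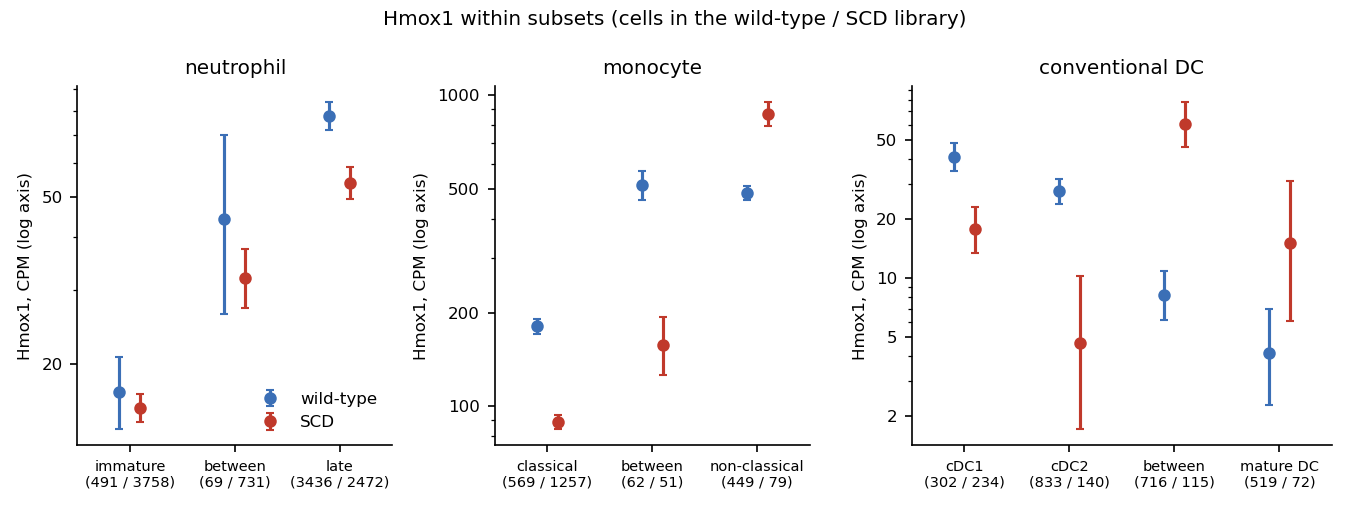
Hmox1 level (CPM, log axis) in subsets of neutrophils, monocytes and conventional DCs in the wild-type (blue) and SCD (red) library, with exact 95% Poisson bars and the cells per subset in brackets; "between" holds cells placed in no subset. Non-classical monocytes are higher in the SCD library (485 and 870), whereas classical monocytes (181 and 88.9) and late neutrophils (77.7 and 53.8) are lower.

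Of the 4 members, Blvrb in pDCs alone passed the level filter in DCs. In conventional DCs no member passed the level filter, and the ratios lay between 0.982 for Blvra and 1.08 for Hmox1 (0.883 to 1.32), where 4.84% of 3448 genes were at least 1.5-fold higher and 14% lower (6.73% and 10.1% with median-of-ratios scaling) and the median gene had a ratio of 0.921. These values rest on few UMIs at equal depth and moved with the settings. After thinning, the ratios were 1.99 for Hmox1 (32 and 15 UMIs) and 0.499 for Blvra (68 and 8), and without stress gene UMIs 2.07 for Hmox1 (9 and 6) and 2.20 for Slc48a1 (17 and 12). Subset shares differed, with cDC1 at 12.7% and 41.7% of conventional DCs, cDC2 at 35.1% and 25% and mature DCs at 21.9% and 12.8%. Hmox1 was 41.2 and 17.7 CPM in cDC1 (ratio 0.429) and 27.5 and 4.69 in cDC2 (0.171, from 197 and 6 UMIs). It was 4.15 and 15.1 in mature DCs (3.63, 1.24 to 9.62, from 14 and 7 UMIs) and 8.24 and 60.4 in cells placed in no subset. Cells with 10 or more Hmox1 UMIs numbered 8 in the wild-type and 2 in the SCD library and held 57.1% and 34.1% of the class's Hmox1 UMIs, and without them the ratio was 1.66 (1.27 to 2.17). At the ratio seen in macrophages, macrophage transcripts would account for 60.3% of the Hmox1 of wild-type and 36.1% of that of SCD conventional DCs by the 5 markers and for 226% and 148% by all 10, with medians of 52.2% and 65.3% over single markers. In the wild-type library single markers ran from 23.0% (C1qb) to 3513% (Adgre1, at 118 CPM in these cells). In the SCD library they ran from 14.6% (C1qc) to 2358% (Adgre1, at 40.5 CPM), so the values depend on the markers taken. The 10 markers summed to 211 and 95.2 CPM there, with none at 0, and the part of macrophage transcripts in the Hmox1 differences was not tested. In pDCs Blvrb was at 88.3 and 108 CPM, a ratio of 1.23 (1.10 to 1.37), where 3.85% of 3561 genes were higher and 2.72% lower by 1.5-fold. At the erythroid ratio, erythroid transcripts would account for 11.1% of it in the wild-type and 23.3% in the SCD library. Neutrophil markers summed to 3380 and 11346 CPM in pDCs and conventional DC markers to 15864 and 8773, and their part was not tested.

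Erythroid cells were few, and 3 of the 4 members, Hmox1, Blvra and Blvrb, were at least 1.5-fold higher in the SCD library, where 60.2% of the 3065 expressed genes were also higher and 6.85% lower. Blvrb had 604 and 1432 UMIs and a ratio of 1.69 (1.53 to 1.86), beside a median gene at 1.68. With no upper limit on genes the Blvrb ratio was 0.940, which ends the call and turns its direction. Blvra, with 8 and 39 UMIs, had a ratio of 3.47 (1.60 to 8.59), which ran from 1.10 with no upper limit on genes and 1.41 after thinning (2 and 4 UMIs), both under 1.5-fold, to 7.28 with cells weighted equally. Blvra passed the level filter through the SCD library only (15 and 52.2 CPM), which favours a call of higher. The other called member was Hmox1, with 30 and 107 UMIs and a ratio of 2.54 (1.68 to 3.94). Slc48a1 had 135 (106 to 171) and 130 CPM (105 to 158), a ratio of 0.958 (0.699 to 1.32), which is below the median gene. The Slc48a1 ratio was 1.41 with cells weighted equally and 1.94 after thinning, from 8 and 22 UMIs.

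Mouse globin transcripts differed between the erythroid cells of the libraries. Together the 8 mouse globin genes were 35.9% of erythroid UMIs in the wild-type and 8.75% in the SCD library. Most of this gap lay in the beta genes, which the labels give as targeted on both chromosomes in the SCD mouse only. Human globin from the transgene was not counted, so these shares do not compare total globin RNA. The class totals behind the CPM values include these mouse globin UMIs. With them left out of the total, the ratios were 1.78 for Hmox1, 2.44 for Blvra, 1.19 for Blvrb and 0.674 for Slc48a1. With median-of-ratios scaling, under which 18.7% of genes were higher and 20.8% lower, the ratios were 1.51, 2.06, 1.0 and 0.569. The Hmox1 ratio was 0.853 with a looser gate, 0.971 in clusters and 0.504 with no upper limit on genes, so its direction changed with these settings. At the macrophage ratio, macrophage transcripts would give 106% of the Hmox1 of wild-type and 33.4% of that of SCD erythroid cells by the 5 markers, with medians of 124% and 39.5% over all 10 taken singly. The wild-type value was thus not above that level, and the ratio of 2.54 is taken over it. The 14 neutrophil markers summed to 12047 and 24889 CPM in these cells, the conventional DC markers to 4258 and 201 and the stress list to 6396 and 2498, and their part was not tested. After thinning, Blvrb was detected in 51.4% (39.2 to 63.6) of 70 wild-type and 71.7% (61.8 to 80.3) of 99 SCD cells. For Hmox1, called higher, these shares were 10% and 8.08% (18.6% and 13.6% unthinned), so its UMIs lay in few cells.

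The share of each transcript found in a class depends on both its level and the size of the class, and for all members but Hmox1 also on the limit of 5000 genes per cell. Red pulp macrophages and monocytes together held most Hmox1 UMIs: 38.0% and 39.3% in the wild-type, 46.2% and 26.6% in the SCD library, although macrophages had only 0.957% and 0.428% of all UMIs. Between the libraries the Hmox1 shares moved against the cell shares of these classes (2.97% and 1.45% macrophages, 11.5% and 13% monocytes). Among kept cells, Blvra was found less in conventional DCs in the SCD library (34.3% in the wild-type, 7.25% in SCD) and more in monocytes (36.4% and 54.4%) and neutrophils (4.07% and 19.3%). Slc48a1 was in conventional DCs at 25.1% and 5.37% and in neutrophils at 14.8% and 40.7%, at nearly equal CPM in both of these classes. The erythroid share of Blvrb was 17.0% and 25.6%, from 0.743% and 0.969% of the kept cells. The shares were also taken with no upper limit on genes, a setting planned for the ratios but applied to these shares after the values were seen. Erythroid cells were then 2.36% and 5.54% of cells and held most Blvrb UMIs, 77.2% in the wild-type and 86.2% in the SCD library. They then held 25.3% and 38.9% of Blvra and 27.9% and 42.7% of Slc48a1. For Slc48a1 this was the largest share of any class in both libraries, with neutrophils at 10.7% and 18.3%. For Blvra the monocyte share was then 28.1% and 38.2%, above the erythroid share in the wild-type library and below it in the SCD library. The Hmox1 shares of macrophages (36.9% and 44.6%) and monocytes (38.5% and 28.9%) moved little.

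**Figure D5:**
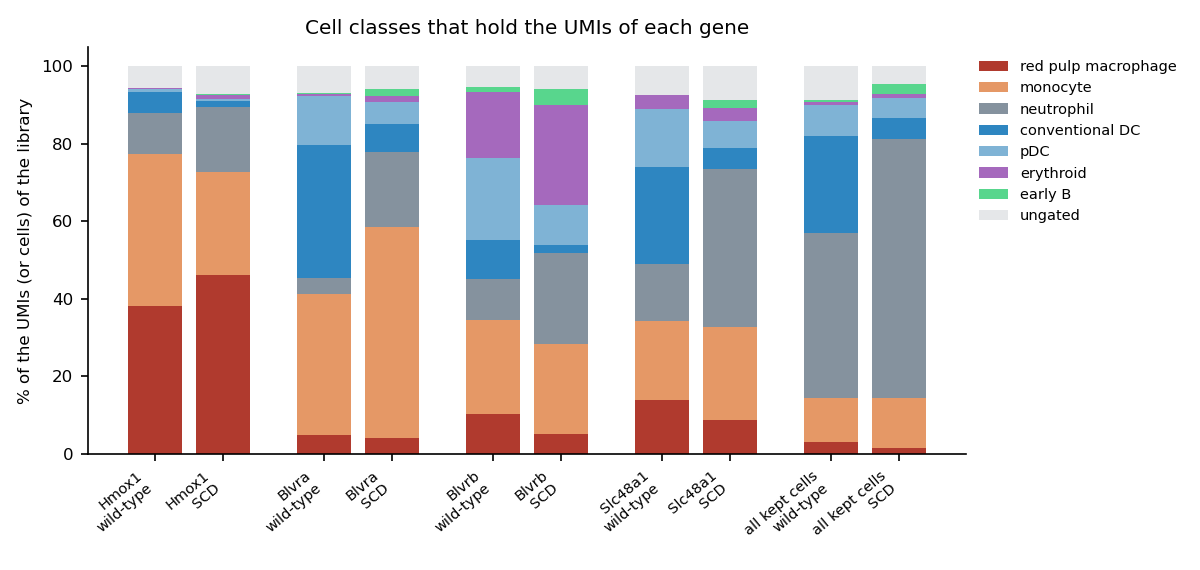
Percentage of the UMIs of each gene (and, in the last pair of bars, of the kept cells) found in each cell class of each library, among cells with at most 5000 genes. Red pulp macrophages hold 38.0% and 46.2% of Hmox1 but 2.97% and 1.45% of the cells, and neutrophils hold 14.8% and 40.7% of Slc48a1.

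Other genes that act on heme or on its iron were read from lists, which are described by counts and medians without a test. In red pulp macrophages 2 of 7 expressed genes for released iron were at least 1.5-fold higher and none lower, against 11.2% and 18.4% of all genes expressed there, and the list median was 1.05 against 0.947 for all genes. The 2 were the ferritin chains, Fth1 (8481 and 13756 CPM) and Ftl1 (12632 and 20206), whose ratios of 1.62 and 1.60 lay near the 1.80 of Hmox1. The iron exporter Slc40a1 (5235 and 5485) had a ratio of 1.05. Of 4 expressed genes for heme transport and scavenging none was higher and 2 were lower, against the same shares and with a median of 0.956: the hemoglobin scavenger receptor Cd163 (551 and 159 CPM, ratio 0.289) and Hp (0.656, interval including 1). Hp was at 89.3 and 58.6 CPM in the macrophages but at 1586 and 1269 in neutrophils. The macrophages also carried neutrophil transcripts, whose part in their Hp was not tested. Hmox2, the constitutive heme oxygenase, was at 125 and 101 CPM (0.804, 0.538 to 1.19). Of 5 regulators none was higher and 2 were lower, Bach1 (0.539, 0.275 to 1.0, from 38 and 15 UMIs) and Keap1 (0.597, 0.294 to 1.15, from 32 and 14 UMIs), with a median of 0.752. Both intervals include 1, and both genes passed the level filter through the wild-type library only, which favours a call of lower. With median-of-ratios scaling, Hp was at 0.692 and no longer called, while Ncoa4 of the iron genes and Mafg of the regulators, both at 1.52, were called higher. Of all genes expressed in these cells, 13.9% were then higher and 15.4% lower. Before this scaling the ratio of Ncoa4 was 1.44 (1.20 to 1.74). That of Mafg was also 1.44 (0.879 to 2.38, from 34 and 36 UMIs), an interval that includes 1.

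The regulators Bach1 and Nfe2l2 were lower in the SCD monocytes and neutrophils. Bach1 was also at least 1.5-fold lower in conventional DCs (90.2 and 60.0 CPM, ratio 0.665, but 0.722 and no longer 1.5-fold with median-of-ratios scaling), where the Hmox1 ratio was 1.08. It was 1 of 2 expressed regulators there with none higher, against 14% of genes lower and 4.84% higher. In erythroid cells Bach1 was higher (19 and 71 UMIs, ratio 2.66, 1.58 to 4.67, and 1.58 with median-of-ratios scaling), 1 of 5 expressed regulators there with none lower, against 60.2% of genes higher. Bach1 passed the level filter there through the SCD library only, which favours a call of higher. With median-of-ratios scaling Nfe2l2 was lower in erythroid cells. Bach1 was at 243 and 149 CPM in monocytes (ratio 0.615) and 133 and 58.1 in neutrophils (0.438), and Nfe2l2 at 219 and 113 (0.514) and 221 and 117 (0.529). Of 4 expressed regulators in monocytes and 3 in neutrophils, these 2 were lower in each class and none was higher, where 16.6% of all genes expressed in monocytes and 37.3% of those in neutrophils were lower. With median-of-ratios scaling 1 of the 3 in neutrophils was lower (Bach1) and 1 higher (Mafg, at 1.58), since Nfe2l2 was then at 0.683. Ferritin did not follow in monocytes, with ratios of 0.799 for Fth1 and 0.962 for Ftl1, but in neutrophils 5 of 6 expressed iron genes were lower, among them Fth1 (0.355), Ftl1 (0.458) and Slc40a1 (0.268), against the same 37.3% of all genes. Of the 5, Ireb2 and Slc11a1 passed the level filter through the wild-type library only. With median-of-ratios scaling 4 of the 6 were lower, with Ireb2 at 0.817, and 1 was higher (Ncoa4, at 1.62), against 21% of all genes lower and 19.5% higher. These ratios of regulators and iron genes are over whole classes, whose subsets had unequal shares in the libraries (late neutrophils 85.8% and 34.8%). Ratios within subsets are not given for these genes, and the part of the subset shares was not tested.

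The genes whose levels ran most like each member were ranked by Pearson's r of log2(CPM + 5) over 12 values, the 6 classes in both libraries, among 5932 genes. The values share libraries, depth and spillover between classes, and r is a description only. Nearest to Hmox1 were Rit1 (r = 0.986), the ferritin gene Ftl1 (0.977) and the transcription factor Maf (0.975). Nearest to Blvra were Cndp2 (0.968), Aco1 (0.956), an iron-sensing protein, and Nfxl1 (0.954). Nearest to Blvrb were Abcb4 (0.953), Slc15a2 (0.936) and Lpcat3 (0.932), and to Slc48a1 Crip2 (0.978), Cela1 (0.968) and Glul (0.967). Among the members, r ran from 0.530 for the reductases Blvra and Blvrb to 0.856 for Slc48a1 and Hmox1.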

How the data were processed

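ScRNA-seq (10x Genomics 3′ chemistry) was performed by the authors on 1 wild-type and 1 SCD spleen suspension enriched for DCs, and the deposited matrices hold raw counts of UMIs for each gene in each cell, made with Cell Ranger 4.0.0. The submitters' processing notes also name Seurat 3.2.3, Scanpy 1.6.0 and the build GRCm38.p6. The study's filters on cells had not been applied to the deposited counts and were applied here, but not its filter on genes seen in few cells. The members and lists were chosen with earlier results of these data known.

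Groups were taken from the sample labels. For each class, markers were scored as the mean UMI share relative to the 0.995 quantile over kept cells. A cell joined the highest class if its score was at least 0.1 and 1.5 times the next with 3 markers detected, which left 829 wild-type cells (8.80%) and 474 SCD cells (4.46%) in no class. These limits were set on the markers after the files had been read. Subsets were assigned likewise within a class, but relative to the 0.99 quantile. UMIs were summed per class and library and divided by the class total (CPM), and ratios are SCD over wild-type with no pseudocount. Sums have exact Poisson, shares exact Clopper-Pearson and ratios exact conditional 95% intervals. Genes with at least 20 UMIs and 50 CPM in a library were called at 1.5-fold. A gene could thus pass through 1 library alone, the one where it is higher. No p-value was computed. Kept cells held 60845405 and 99608356 UMIs, and a count of 0 is given with a limit of 3 counts of the total.

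Scrublet marked 359 wild-type (3.81%) and 214 SCD cells (2.01%) as doublets. They were kept, and removed in an alternative. For comparison, cells were clustered (Leiden, 29 clusters) without the members and lists. The genes named are the members, the list genes and the 3 nearest genes of each member by r, leaving out mitochondrial, ribosomal, globin, antigen receptor and sex-linked genes. Counting was tested on simulated data. Other scaling, gates, filters, thinning and pseudocounts were tried. Software was scanpy 1.11.5, igraph 0.11.9, leidenalg 0.10.2, scikit-learn 1.9.0, pandas 2.3.3, scipy 1.17.1, numpy 2.4.6 and matplotlib 3.10.9 in Python 3.11.15.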

Additional observations from a re-analysis of the deposited data

Results flagged for a closer look

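Erythroid cells with over 5000 genes, which the filter left out of the main comparison, formed a larger and deeper set than the kept ones, with 159 wild-type and 554 SCD cells at medians of 84612 and 82268.5 UMIs. Slc48a1 had 53.4 CPM in these wild-type cells and 59.1 in these SCD cells, a ratio of 1.11 (1.02 to 1.20), which drew attention because it is a signal above the control library outside the main comparison. In the same cells Blvrb was at 699 and 652 CPM (ratio 0.932), Blvra at 43.1 and 46.4 (1.07), and Hmox1 at 7.54 and 2.47 (0.327). None of these ratios is at least 1.5-fold higher, and that of Hmox1 is at least 1.5-fold lower. In the kept erythroid cells 3 of the 4 were higher, where 60.2% of the 3065 expressed genes were higher too. No share over all genes is given for the cells over the limit, and the difference between the sets was not tested.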

How the results depend on the processing

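Of the ratios of the 4 members in 6 classes recomputed under every alternative, 261 stayed within counting error of the value given, 58 moved beyond it, and 5 that had been called at 1.5-fold changed direction. Ratios within 1.5-fold or under the level filter that crossed 1 are not counted among the 5. Of the shares of cells with a UMI, 25 stayed and 119 moved with the thinning depth, and of the counts of called genes 8 stayed within 1.5 times and 28 moved. In neutrophils, Hmox1 was 0.572 with median-of-ratios scaling, 0.491 with a pseudocount of 5 CPM, 0.506 with a stricter gate, 0.518 with at least 1000 genes per cell and 1.0 in thinned cells without stress gene UMIs. That last value (1.005, from 20 and 149 UMIs) is counted among the 5 because it lies above 1, but it is nearly no difference. There Blvra was 1.02 thinned (16 and 29 UMIs) and 0.674 without stress gene UMIs (4 and 20), and Blvrb was 1.15 with median-of-ratios scaling, 1.02 with at least 1000 genes and 1.12 without stress gene UMIs. Slc48a1 was 1.30, 0.875 with cells weighted equally, 0.697 thinned and 0.674 without stress gene UMIs. In red pulp macrophages, Hmox1 was 1.90 with median-of-ratios scaling, 1.30 in clusters, 1.65 thinned and 1.59 without stress gene UMIs, Blvra was 1.17 in clusters and 1.47 without called doublets, both under 1.5-fold, but 2.77 thinned (21 and 39 UMIs) and 2.90 without stress gene UMIs, and Blvrb and Slc48a1 were 0.902 and 0.935 in clusters. In erythroid cells, Hmox1 reversed to 0.971 in clusters, 0.853 with a looser gate and 0.504 with no upper gene limit, where Blvrb reversed to 0.940, while Blvra ran from 1.10 to 7.28 and Slc48a1 from 0.569 to 1.94. In conventional DCs, Hmox1 ran from 0.969 to 2.07, Blvra from 0.499 to 1.09 and Slc48a1 from 0.921 to 2.20. The cause was not tested. With median-of-ratios scaling the genes called higher and lower went from 181 and 912 to 477 and 513 in neutrophils and from 1845 and 210 to 572 and 636 in erythroid cells. The alternatives without shared barcodes, stress gene UMIs or globin UMIs were chosen after seeing the data. Macrophages and erythroid cells with at least 1000 genes, and erythroid cells without stress gene UMIs, were too few and were not run. Each group is 1 mouse, so no replicate could be left out, and erythroid Blvra and Hmox1 rest on 8 and 30 wild-type UMIs. No paired analysis was possible because there is only 1 mouse per genotype and no test was run.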

Other observations

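Genes of heme synthesis were expressed mainly in erythroid cells, with 8 of 9 past the level filter there, 1 of 9 in neutrophils (Alas1, at 81.6 and 82.2 CPM, which did not pass in erythroid cells) and 0 of 9 in red pulp macrophages, monocytes, conventional DCs and pDCs. Of the 8, 3 were at least 1.5-fold higher in the SCD library (Alad at 158 and 463 CPM, Cpox at 301 and 835, and Uros) where 60.2% of all expressed genes were. Alas2, the erythroid enzyme of the first step, was lower at 2038 and 996 CPM, where 6.85% of all expressed genes were lower. The list median was 1.35 and that of all expressed genes 1.68. Fech, which inserts the iron, had a ratio of 0.837, and the transferrin receptor gene Tfrc one of 2.07. With median-of-ratios scaling Uros was at 1.36 and no longer 1.5-fold higher, Alad and Cpox were at 1.74 and 1.65 and Tfrc at 1.23. Alas2 (0.290) and Fech (0.497) were then lower. This made 2 of the 8 higher and 2 lower, against 18.7% and 20.8% of all expressed genes.

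Outside the classes, 10 ungated wild-type and 13 ungated SCD cells had 10 or more Hmox1 UMIs and held 55.6% and 75.1% of the Hmox1 UMIs of all ungated cells. The median of these cells had UMIs of 8 and 9 of the 10 red pulp macrophage markers. Likewise 1 wild-type and 9 SCD cells gated as neutrophils had 10 or more Hmox1 UMIs, with UMIs of 5 and a median of 9 macrophage markers.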
